A study of Sorghum bicolor with 9 samples.

Results

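Mature pollen anthers of sorghum held 112 genes that were abundant there and close to undetected in the earlier anthers. The genes were selected on their measured levels. A locus with a sorghum gene ID was taken when it reached at least 100 FPKM (fragments scaled by transcript length and by the number of mapped fragments) in mature pollen anthers and stayed below 1 FPKM in both earlier stages. A further 2 loci that met these limits, the beta-amylase gene Sobic.001G226600 and the oleosin gene Sobic.001G126900, were left out by the rule, so 112 of 114 were kept. They made up 0.338% of the 33115 loci with a gene ID and 9.83% of the 1139 such loci that reached 100 FPKM at the mature stage. Each of the 112 loci carried 1 gene ID.

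Whole anthers of the Sorghum bicolor variety M35-1, a post-rainy season grain sorghum, were collected at 3 stages from plants grown in New Delhi, India. Stage A1 ran from meiosis to tetrads, stage A2 held microspores, and stage A3 held mature pollen. All stages came from the same untreated genotype, and 3 libraries of stranded total RNA were made for each stage, 9 in all. The levels analysed here are 1 pooled FPKM value per locus and stage, made by the authors from the 3 libraries, so no value below has a replicate error and no difference was tested. Read numbers per locus are not part of the table used here, so the number of reads behind each value was not known.

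The male gametophyte of a flowering plant develops inside the anther, where the tapetum, the innermost wall layer, feeds the meiocytes and microspores and then degenerates. Late in maturation the pollen grain fills with stored transcripts and proteins that are used when it germinates and extends a tube through the pistil. Beta-expansins, which loosen grass cell walls and include major grass pollen allergens, are well known among these late products.

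The stage labels were set against marker genes that the study had placed on these samples, so the markers are no independent check. All 6 mature pollen markers were highest in A3, with summed levels of 1.37, 1.92 and 456 FPKM at A1, A2 and A3. All 8 tapetum and wall markers used were lowest in A3, with sums of 2418, 6715 and 149 FPKM, and none of them was listed at 0 in A3, where they ranged between 0.179 and 101 FPKM. These 8 are a selection too. Sobic.001G222700, which the study's candidate list ties to exine and anther cuticle, was placed there at peak expression in A3 and was not used. All 6 meiosis markers used were lowest in A3 as well, with sums of 195, 150.3 and 59.6 FPKM. These 6 are likewise a selection. The study's candidate list also places some genes tied to meiotic crossover or to the control of meiotic genes at peak expression in A3. Those genes were not used, so the shared direction of the 6 depends on the choice of markers. In whole anthers, a gene with fewer expressing cells and a gene with less RNA per cell cannot be told apart, so the part that tissue makeup had in any stage difference was not tested. The 3 A3 libraries carried a sequencing project code that only 1 A1 and 1 A2 library shared, and with pooled values stage and project cannot be told apart.

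Together the 112 genes held 7.96% of the summed FPKM of all 40082 loci in A3, but 0.00310% in A1 and 0.00230% in A2. Their summed level was 19.8 FPKM in A1, 15.5 FPKM in A2 and 64983 FPKM in A3. Because the limits of the rule fix a low early sum, these shares describe how much of the mature anther transcriptome the genes occupied. Within the loci with a gene ID at 100 FPKM or more in A3, the 112 genes carried 16.99% of the summed level. Counts were lower for early profiles in which every stage was at 100 FPKM or more or below 1 FPKM. A total of 39 loci reached 100 FPKM in A1 and A2 and were below 1 FPKM in A3. With the other stages below 1 FPKM, 3 reached 100 FPKM in A2 alone and 0 in A1 alone. Genes high in 1 early stage and between the limits in the other were not counted. An example is Sobic.001G320300, with 10.8, 293 and 0.179 FPKM at A1, A2 and A3, so these counts are no full mirror of the set.

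**Figure D1:**
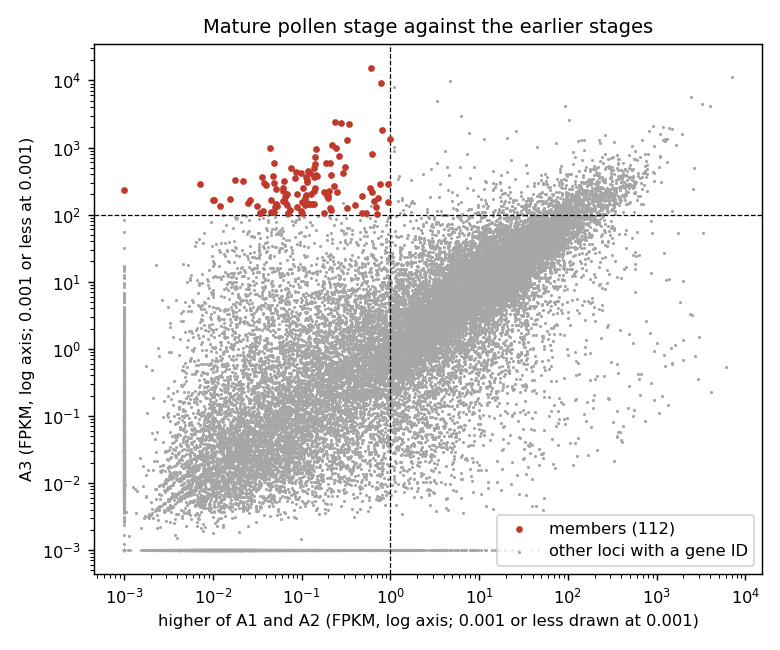
Level in A3 plotted against the higher of the A1 and A2 levels for loci with a gene ID, both axes logarithmic and in FPKM, with the 112 genes (members) in red, the other loci in grey and dashed lines at the limits of 100 and 1 FPKM. The 112 genes fill the corner set by the rule, at 100 FPKM or more in A3 and under 1 FPKM before, while the other loci at 100 FPKM or more in A3 had a median of 125 FPKM in A2 and 122 FPKM in A1.

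A3 levels of the 112 genes spread widely. The lowest was 100.6 FPKM, the median 220.4 FPKM and the highest 15282 FPKM, with quartiles of 145 and 395 FPKM. The other 1027 loci at 100 FPKM or more in A3 had a median A3 level of 175 FPKM. Abundance lay in few genes. The 2 highest held 37.5% of the summed A3 level of the 112 genes and the 10 highest held 58.1%, while the 56 lowest held 12.9%. Among all loci, the 112 genes took 2 of the 10 highest A3 values, 6 of the 50 highest and 13 of the 100 highest.

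All 112 genes were at least 2-fold higher in A3 than in each earlier stage after 0.5 FPKM was added to every value, which the rule fixes. Over all 30776 loci with a gene ID above 0 in a stage, 16.5% exceeded their A2 level in A3 by 2-fold or more, and 17.4% exceeded their A1 level in A3 by as much. On that log2(FPKM + 0.5) scale the median difference of A3 over A2 was 8.50 among the 112 genes, with a range of 6.38 to 14.86, and A3 over A1 had a median of 8.43 with a range of 6.71 to 13.76. The medians over all loci were 0.01 in both comparisons. The other loci at 100 FPKM or more in A3 had medians of 0.58 over A2 and 0.54 over A1, and of these 1027 loci 355 exceeded A2 and 385 exceeded A1 by 2-fold or more.

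**Figure D2:**
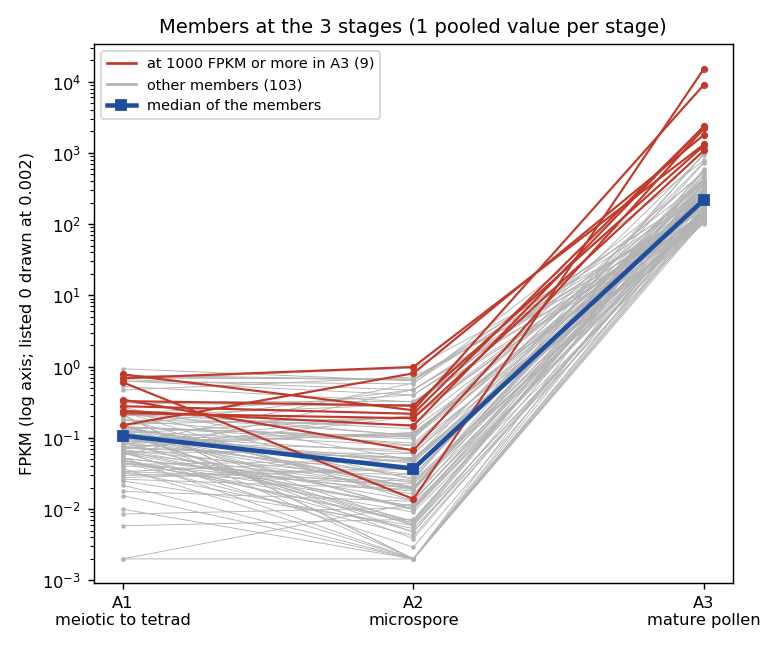
FPKM on a logarithmic axis for each of the 112 genes at A1, A2 and A3, 1 pooled value per stage and 1 line per gene, with the 9 genes at 1000 FPKM or more in A3 in red and the median in blue. A value listed as 0 is drawn near the bottom of the axis. The median level was 0.108 FPKM in A1, 0.0370 FPKM in A2 and 220.4 FPKM in A3.

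The most abundant transcript of the whole A3 table belonged to this set. Sobic.006G059400, on chromosome 6 at 40853740–40854275 in the sorghum v3.0.1 assembly, had 0.603, 0.0139 and 15282 FPKM at A1, A2 and A3. This 536-base locus alone carried 1.87% of the summed A3 FPKM and showed the largest log2 differences of the set, 14.86 over A2 and 13.76 over A1. Its A2 level stood further below its A1 level than that of any other gene of the set that was above 0 in both stages. No description was found for it in the sources used here, and the same holds for every gene named below without a function.

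Sobic.009G149100, the fifth highest locus of A3, measured 0.777, 0.244 and 9096 FPKM at A1, A2 and A3 and held 1.11% of the summed A3 level. Sobic.003G070200 followed with 0.239, 0.148 and 2375 FPKM. Its span was shared with Sobic.003G070300, which had 3.80, 3.38 and 1.21 FPKM, so the division of reads between them is uncertain. Sobic.004G159200 had 0.278, 0.218 and 2343 FPKM. Sobic.003G070200 and Sobic.004G159200 lay far below Sobic.006G059400 and Sobic.009G149100 in A3, yet all 4 of these genes had early levels below 1 FPKM.

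A further 5 genes passed 1000 FPKM in A3. Sobic.008G043200 had 0.344, 0.0666 and 2211 FPKM at A1, A2 and A3, and its neighbour Sobic.008G043300 had 0.222, 0.188 and 1080 FPKM. Sobic.003G206100 reached 1797 FPKM in A3 after 0.150 and 0.805 FPKM in A1 and A2. Sobic.010G164500 had 0.688, 0.988 and 1320.5 FPKM, the highest A2 level of the set. Sobic.010G015100 had 0.328, 0.283 and 1273 FPKM. Across these 9 genes the median was 0.328 FPKM in A1 and 0.218 FPKM in A2, and together they held 56.6% of the summed A3 level of the set.

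Between 500 and 1000 FPKM in A3 lay 11 genes, from 520.5 to 990.2 FPKM. The highest of them were Sobic.005G006400 with 0.0443, 0.0178 and 990.2 FPKM at A1, A2 and A3, Sobic.004G025500 with 0.242, 0.0259 and 971 FPKM, and Sobic.010G104600 with 0.144, 0.0965 and 937 FPKM. Sobic.007G167000, the shortest locus of the set at 243 bases, had 0.210 FPKM in A1, was listed at 0 in A2 and had 578 FPKM in A3. Below these, 42 genes lay between 200 and 500 FPKM, 18 between 150 and 200 FPKM and 32 between 100 and 150 FPKM. The 42 genes of the middle class held 20.2% of the summed A3 level of the set, against 12.3% for the 11 genes above them.

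Gene functions were available from the study's annotation for chromosomes 1 and 2 as used here, where 26 of the 112 genes lay, and 12 of these 26 had an entry. That annotation lists genes that the study called different between stages. The genes among these 26 without an entry were therefore absent from that list as used here, and the reason was not tested. The remaining 86 genes lay on other chromosomes and are described by level, length and position. Of the 12 with an entry, 10 (83.3%) had a match in rice or Arabidopsis, against 1507 of the 1582 other genes of that annotation (95.3%), and 9 had a match with a described function. These 9 fell into pollen allergen and expansin proteins, sugar enzymes, and a few genes of other function. Functions are those of the rice or Arabidopsis matches.

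Pollen allergens and expansins were represented by 3 genes. Sobic.001G332000, matched to a pollen allergen, had 0.267, 0.0484 and 749 FPKM at A1, A2 and A3. Sobic.002G351500, matched to the grass pollen allergen Cyn d 23, had 0.102, 0.0233 and 107 FPKM. Sobic.001G539880, matched to expansin B2, a wall-loosening protein, had 0.0372 FPKM in A1, was listed at 0 in A2 and had 113 FPKM in A3. The pollen allergen match Sobic.001G332000 was the highest of these by far in A3, and in A1 it was the highest as well.

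Enzymes acting on sugars or sugar conjugates made up another 3. Sobic.001G089300, matched to a beta-glucosidase of the glycosyl hydrolases, which release glucose from conjugates, had 0.0400, 0.0301 and 279 FPKM at A1, A2 and A3. Its pathway class in the study's annotation is cell wall degradation. Sobic.001G355300, matched to an aldose 1-epimerase, which interconverts the ring forms of sugars, had 0.0886, 0.0677 and 206 FPKM. Sobic.001G093100, matched to UDP-glycosyltransferase 73B4, which attaches sugars to small molecules, had 0.181, 0.0789 and 105 FPKM. All 3 were lower in A2 than in A1, and their A3 levels lay on both sides of the median of the set.

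The last 3 described genes fell outside these classes. Sobic.001G257200, matched to the beta subunit of the general transcription factor TFIIE, had 0.178, 0.152 and 219 FPKM at A1, A2 and A3. Sobic.002G308900, matched to a ubiquitin fused to ribosomal protein L40e, had 0.628, 0.399 and 218 FPKM. Sequences of ubiquitin fusion genes are close to those of their copies, so the share of reads given to this copy is uncertain. Sobic.001G359100, matched to a cytochrome P450, an oxidising enzyme, had 0.116, 0.200 and 175 FPKM and was the only one of the 9 described genes with a higher level in A2 than in A1.

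Genes without a described match reached the same levels. Sobic.001G024900, whose rice match is an expressed protein of no stated function, had 0.0154 FPKM in A1, was listed at 0 in A2 and had 174 FPKM in A3. Sobic.002G260100 had no match and was the only gene of the set listed at 0 in both A1 and A2, with 234.8 FPKM in A3. Sobic.002G006200 also had no match and had 0.0573, 0.478 and 107 FPKM.

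The same annotation named 16 other genes of the expansin, polygalacturonase, pectate lyase and pectinesterase families (12 expansins, 2 polygalacturonase-related genes, 1 pectate lyase and 1 pectinesterase), all of which act on or loosen the cell wall or inhibit enzymes that do. The annotation covers genes that the study called different between stages on these samples, so their direction is not independent evidence. Of the 16, 11 were at least 2-fold higher in A3 than in A2 and 5 were at least 2-fold lower, beside 16.5% higher over all loci. Their median A3 level was 28.2 FPKM, and only Sobic.001G300400, an expansin gene with 36.7, 38.6 and 165 FPKM at A1, A2 and A3, reached 100 FPKM in A3. Below 1 FPKM in both A1 and A2 were 8 of the 16, near the 47.4% of all loci with a gene ID. Of these 8, 7 reached at least 10 FPKM in A3, against 4.12% of all such low loci, but the annotation covers only genes already called different between stages. Among these 7, below the abundance limit of the set, were Sobic.001G024400, a pectin methylesterase match at 0.0156, 0.0846 and 76.4 FPKM, and Sobic.001G539820, an expansin B2 match at 0.0253, 0 and 83.5 FPKM.

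Position was not used to choose the genes, and they lay near each other on the chromosomes. Another gene of the set was found within 100 kb of 37 of the 112 (33.0%), whereas 1128 of 17548 other loci at 1 FPKM or more in A3 (6.43%) and 74 of 1027 other loci at 100 FPKM or more in A3 (7.21%) had a gene of the set within that distance. The 37 genes formed 16 groups, of which 13 were pairs, with spans of 5.68 to 88.7 kb, and 12 of the 37 were direct neighbours in gene order. Compared with the 75 genes that stood alone, the 37 had a median A3 level of 305 against 205.8 FPKM and a median locus length of 996 against 1992 bases.

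A lower version of the same profile was found in a small share of the loci beside the set, a larger share than elsewhere. Of the 207 loci next to a gene of the set, 14 (6.76%) had at least 10 FPKM in A3 and less than 1 FPKM in A1 and A2, against 520 of the 32796 remaining loci (1.59%). Tandem copies of a gene can share reads, and how the counting treated reads with several positions is not given in the sources used here. Levels of single copies in the groups below are therefore uncertain where the copies are alike.

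On chromosome 1 at 80240633–80287036 lay a run of late loci that included expansin genes. An expansin B2 match was given for Sobic.001G539700, Sobic.001G539760, Sobic.001G539820 and Sobic.001G539880, and the others had no entry. From one end, Sobic.001G539600 had 0.116, 0.00478 and 323 FPKM at A1, A2 and A3. The next locus, Sobic.001G539700, outside the set, was listed at 0 in A1 and A2 and had 16.3 FPKM in A3. Going further along the chromosome, the A3 level of each locus with a gene ID was higher than that of the one before it. Sobic.001G539760 had 29.9 FPKM, Sobic.001G539820 had 83.5 FPKM, and the genes of the set Sobic.001G539880, Sobic.001G539940 and Sobic.001G540000 had 113, 159 and 305 FPKM in A3. A locus without a gene ID, MSTRG.5236, broke this order, with 201.7 FPKM in A3 between Sobic.001G539760 and Sobic.001G539820.

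The A1 levels of the loci with a gene ID followed the same order from Sobic.001G539700 on, and MSTRG.5236, at 0.0738 FPKM in A1, again broke it. In A1 the loci Sobic.001G539760, Sobic.001G539820, Sobic.001G539880, Sobic.001G539940 and Sobic.001G540000 had 0.0118, 0.0253, 0.0372, 0.0613 and 0.115 FPKM. For the 6 loci of the run with a gene ID that were above 0 in A1, the A1 level was between 0.0302% and 0.0396% of the A3 level, and for MSTRG.5236 it was 0.0366%. This share was less even in the other groups of more than 2 genes, given below. Among genes of the set it ranged from 0.0271% to 0.171% on chromosome 8 and from 0.00204% to 0.0322% on chromosome 10. Within the run, only Sobic.001G539600, Sobic.001G539940 and Sobic.001G540000 were above 0 in A2, at 0.00478, 0.00484 and 0.0205 FPKM. The flanking genes had another profile, Sobic.001G539500 with 18.7, 18.4 and 14.2 FPKM and Sobic.001G540100 with 28.8, 23.4 and 4.86 FPKM at A1, A2 and A3.

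A second group of 4 genes lay on chromosome 8 at 2489940–2512961. Sobic.008G027900 was the highest, with 0.0615, 0.0107 and 227 FPKM at A1, A2 and A3. The other members Sobic.008G027800, Sobic.008G028000 and Sobic.008G028200 were listed at 0 in A2 and had 124, 132 and 145 FPKM in A3, after 0.212, 0.0531 and 0.132 FPKM in A1. Between and beside them stood Sobic.008G028100 and Sobic.008G028300, at 69.2 and 57.4 FPKM in A3, which missed only the abundance limit. The locus Sobic.008G028100 had the same length of 366 bases and the same A1 level of 0.132 FPKM as Sobic.008G028200, and Sobic.008G027800 was also 366 bases long.

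**Figure D3:**
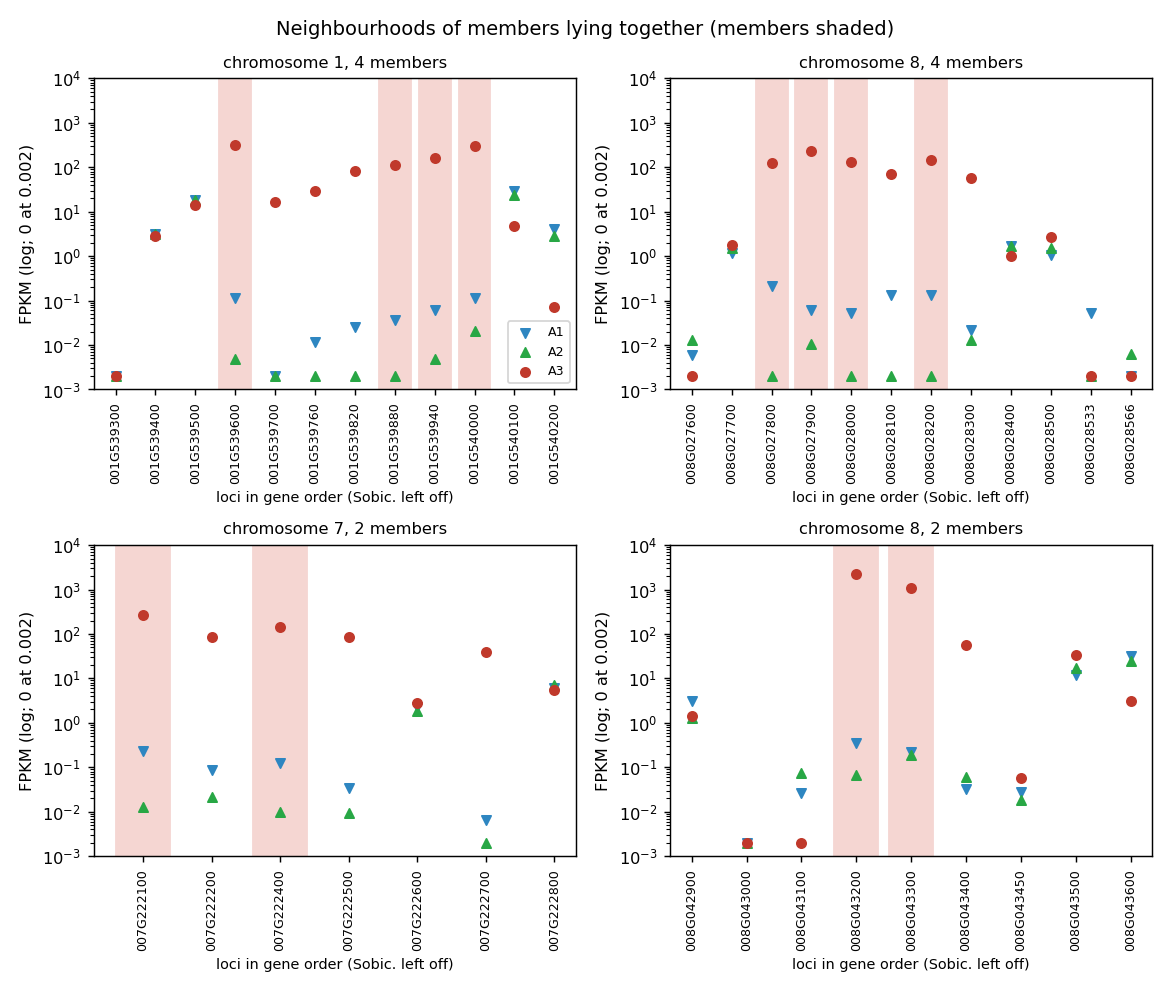
Levels in A1 (blue), A2 (green) and A3 (red) on a logarithmic FPKM axis for loci in gene order around 4 groups, with the genes of the set (members) shaded and values listed as 0 drawn near the bottom. Loci without a gene ID are not drawn. On chromosome 1 the A3 levels of the drawn loci climb from 16.3 FPKM at Sobic.001G539700 to 305 FPKM at Sobic.001G540000 and the A1 levels keep a nearly fixed distance below them, and in all 4 panels the shaded genes stand beside unshaded ones of like shape.

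Chromosome 10 held the only group of 3, at 4407833–4442682. Sobic.010G056500 had 0.188, 0.0143 and 583 FPKM at A1, A2 and A3. Its companions Sobic.010G056800 and Sobic.010G056900 had 0.0248, 0.00587 and 146 FPKM and 0.00584, 0.00719 and 286 FPKM. The gene with the lowest A1 level, Sobic.010G056900, was not the lowest in A3, so the order of the early levels was not that of the A3 levels here.

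Of the pairs, the closest was on chromosome 5 at 70726358–70732033. Sobic.005G220400 had 0.137, 0.00984 and 489 FPKM at A1, A2 and A3, and Sobic.005G220500 had 0.147, 0.0197 and 395 FPKM. Both loci were 701 bases long, and the A2 level of Sobic.005G220500 was 2 times that of Sobic.005G220400. Loci on either side of the pair were at 0.0761 FPKM or less in A3.

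Another abundant pair, Sobic.008G043200 and Sobic.008G043300, described above, lay on chromosome 8 at 4241219–4251556. The next locus, Sobic.008G043400, had 57.6 FPKM in A3 and was below 1 FPKM before. On chromosome 7 at 65024849–65036451, Sobic.007G222100 had 0.231, 0.0131 and 267 FPKM at A1, A2 and A3, and Sobic.007G222400 had 0.126, 0.00982 and 145 FPKM. Around this pair, Sobic.007G222200, Sobic.007G222500 and Sobic.007G222700 had 84.2, 86.6 and 38.9 FPKM in A3 and were below 1 FPKM before, so 5 loci of this neighbourhood shared the profile.

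On chromosome 3 at 53635305–53672149, Sobic.003G206100 was accompanied by Sobic.003G206300, which had 0.141, 0.103 and 562.5 FPKM at A1, A2 and A3. The most abundant locus there was outside the set. Sobic.003G206200, between the other two, had 0.263, 1.11 and 7993 FPKM and missed the early limit narrowly in A2. On chromosome 6 at 40793733–40854275, the leading gene Sobic.006G059400 was paired with Sobic.006G059100, which had 0.309, 0.276 and 520.5 FPKM. The span of Sobic.006G059100 was shared with 3 loci that had 46.5 to 195 FPKM in A3 and were far above 1 FPKM before, so the division of reads among them is uncertain.

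On chromosome 1 at 62067492–62080087, the pollen allergen match Sobic.001G332000 was paired with Sobic.001G332200, which had 0.0487, 0.00643 and 595 FPKM at A1, A2 and A3. The loci between them, Sobic.001G332050 and Sobic.001G332100, had 0.481 and 0.805 FPKM in A3. On chromosome 4 at 207244–275381, Sobic.004G002700 had 0.212, 0.109 and 394 FPKM and Sobic.004G003300 had 0.00996, 0 and 165 FPKM. Their neighbours Sobic.004G002600 and Sobic.004G002800 had 63.4 and 97.7 FPKM in A3 and were below 1 FPKM before, so this neighbourhood too held 4 loci of the profile.

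A second pair on chromosome 6 lay at 2921525–2999058, where Sobic.006G017700 had 0.0217, 0 and 320.03 FPKM at A1, A2 and A3 and Sobic.006G017900 had 0.117, 0.0436 and 445 FPKM. A second pair on chromosome 5 lay at 782024–870760, where Sobic.005G009500 had 0.0887, 0.00599 and 132 FPKM and Sobic.005G010000 had 0.105, 0.0397 and 248 FPKM. On chromosome 2 at 606344–641037, Sobic.002G006200, given above, was paired with Sobic.002G006700, which had 0.0736, 0.0508 and 119 FPKM. The loci between the genes of these 3 pairs did not have the profile of the set.

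Chromosome 10 held 3 further pairs. Sobic.010G015100 at 1233163–1285770 was paired with Sobic.010G016200, which had 0.0336, 0.0499 and 128 FPKM at A1, A2 and A3. Sobic.010G104600 at 9856931–9890575 was paired with Sobic.010G105000, which had 0.659, 0.468 and 159 FPKM. The pair at 58137843–58223887 joined Sobic.010G239400, with 0.0423, 0.0483 and 108 FPKM, and Sobic.010G240300, with 0.0990, 0.0200 and 410.1 FPKM. Pairs of this kind, with up to 9 other loci between them, were near in bases but not adjacent.

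All 10 chromosomes carried genes of the set. Chromosome 10 had the most for its size, with 17 among 2841 loci with a gene ID (5.98 per 1000), followed by chromosome 8 with 9 among 1971 (4.57 per 1000), beside 3.38 per 1000 over all chromosomes. Chromosome 2 had the fewest for its size, with 8 among 4253 (1.88 per 1000). By summed A3 level the order differed. Chromosome 6 led with 17444 FPKM and chromosome 9 followed with 10822 FPKM, each with its sum resting mainly on 1 gene, Sobic.006G059400 and Sobic.009G149100.

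The loci of the set were short. Locus length here is the span of the locus in the genome, introns included. Its median was 1448 bases in the set, with a range of 243 to 24012 bases, against 4304 bases for the other loci at 100 FPKM or more in A3 and 3853 bases for all other loci with a gene ID. Under 2000 bases were 70 of the 112 genes (62.5%), against 14.7% of the other loci at 100 FPKM or more in A3 and 28.6% of all other loci. Under 1000 bases were 34 genes (30.4%), against 7.01% and 11.3% in the same comparisons. Loci of the same profile below the abundance limit were not compared by length, so whether shortness is particular to the set was not tested.

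Length also differed within the set. The 20 genes at 500 FPKM or more in A3 had a median span of 951 bases, against 1701.5 bases for the 92 genes below that level, and over the 112 genes the Spearman coefficient of A3 level and length was -0.19. FPKM divides by transcript length, so the level and the length are not independent measures. Some spans hold several loci that the table reports with the same coordinates, as for 12 of the 112 genes (10.7%) and for 272 of the 1027 other loci at 100 FPKM or more in A3 (26.5%). Among loci with a span of their own, the medians were 1292 bases in the set and 3533 bases for the other loci at 100 FPKM or more in A3.

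**Figure D4:**
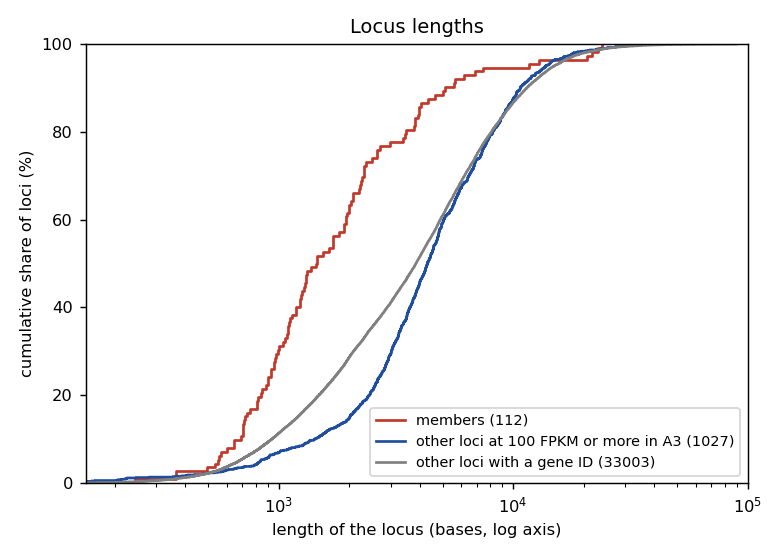
Cumulative share of loci in percent by locus length in bases (logarithmic axis, introns included) for the 112 genes, the 1027 other loci at 100 FPKM or more in A3 and all other loci with a gene ID. The line of the 112 genes (members) rises at shorter lengths, with a median of 1448 bases against 4304 and 3853 bases.

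Although all early levels were below 1 FPKM by the rule, few were listed at 0. In A2, 9 genes were listed at 0, and in A1, 2 genes were. In A2 the median was 0.0370 FPKM, with quartiles of 0.0107 and 0.149 FPKM, and in A1 it was 0.108 FPKM, with quartiles of 0.0562 and 0.211 FPKM. Both early levels were under 0.1 FPKM for 46 genes, and 15 genes reached 0.5 FPKM in at least 1 early stage. Expressed against A3, the median A2 level was 0.0110% and the median A1 level 0.0371%, and the highest were 0.711% and 0.524%. For the 61 genes of at least 200 FPKM in A3 that were above 0 in an early stage, the medians were 0.00707% in A2 and 0.0271% in A1.

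The order of the early stages was not set by the rule, and it leaned one way. A2 was lower than A1 for 86 of the 112 genes (76.8%) and higher for 25, and 1 gene was at 0 in both. Among all 12310 loci with a gene ID that were below 1 FPKM in A1 and A2 and above 0 in at least 1 of them, A2 was lower for 47.0%. Of the 102 genes above 0 in both stages, the ratio of A2 to A1 had a median of 0.613, and 46 were at least 2-fold lower in A2 while 6 were at least 2-fold higher. At these levels a value may rest on very few reads, and the error of a single ratio is unknown.

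The lean was larger where the A3 level was higher. Among loci below 1 FPKM in both early stages, A2 was lower than A1 for 770 of 1755 loci (43.9%) at 1 to under 10 FPKM in A3, 159 of 339 (46.9%) at 10 to under 30 FPKM, and 101 of 182 (55.5%) at 30 to under 100 FPKM. In the set the count was 33 of 50 (66%) at 100 to under 200 FPKM and 53 of 61 (86.9%) at 200 FPKM or more. In this last class the median level was 0.0346 FPKM in A2 and 0.138 FPKM in A1. Of the 3 libraries pooled into each early value, 1 shared the sequencing project code of the A3 libraries. That A2 library carried the lane number 5, as did 1 A3 library of the project, and that A1 library carried lane number 4, as did no A3 library. With pooled values, whether the early levels came from 1 library of a stage, and the part of project and lane in them and in the order of A2 and A1, was not tested.

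**Figure D5:**
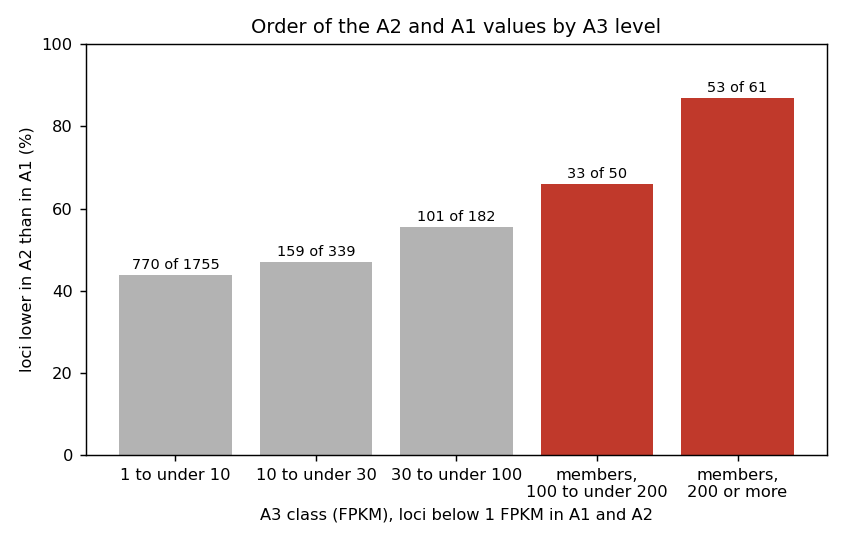
Percent of loci with a lower level in A2 than in A1, by class of A3 level in FPKM, over loci below 1 FPKM in A1 and A2 and above 0 in at least 1 of them. Grey bars are loci below 100 FPKM in A3 and red bars are genes of the set, and the height climbs from 43.9% in the lowest class to 86.9% in the highest.

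In 14 genes above 0 in both early stages, the A2 level was 10-fold or more below the A1 level. Besides Sobic.006G059400 they included Sobic.004G350400 with 0.127, 0.00385 and 203 FPKM at A1, A2 and A3, Sobic.001G306500 with 0.150, 0.00622 and 378 FPKM, and Sobic.004G247500 with 0.113, 0.00590 and 369 FPKM. The gene Sobic.001G306500, at 59117709–59119251 on chromosome 1, is next in gene order to Sobic.001G306400, an expansin gene and mature pollen marker. The latter lies at 59040123–59041559, so the 2 are not close in bases, and it had 33.9 FPKM in A3. At the other end, Sobic.002G006200, Sobic.009G087900 and Sobic.003G206100 had their A2 levels furthest above A1, at 0.478, 0.589 and 0.805 FPKM in A2 and 0.0573, 0.0790 and 0.150 FPKM in A1. Sobic.005G023700 was listed at 0 in A1, with 0.0119 FPKM in A2 and 134 FPKM in A3. These examples were chosen after their values were seen.

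Of the 9 genes listed at 0 in A2, 8 were above 0 in A1, at 0.00996 to 0.212 FPKM, and 6 of the 9 belonged to the groups of neighbours. Ranked over the 112 genes, the A1 and A2 levels had a Spearman coefficient of 0.61, the A1 and A3 levels 0.30 and the A2 and A3 levels 0.06. These coefficients are across genes of the same pooled libraries, with ranges bounded by the rule, and are given as a description.

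Near the limits the profile continued without a gap. Just inside the A3 limit were Sobic.003G323500 at 100.6 FPKM, Sobic.004G190400 at 104 FPKM and Sobic.001G093100 at 105 FPKM, and just outside were Sobic.010G257800 at 99.3 FPKM, Sobic.003G114800 at 98.0 FPKM and Sobic.004G002800 at 97.7 FPKM. The spans of Sobic.003G323500 and Sobic.004G190400 were shared with Sobic.003G323600 and Sobic.004G190500. The division of reads, and with it the place of these genes inside the limit, is therefore uncertain. Just inside the early limit were Sobic.010G164500 and Sobic.003G335200, at 0.988 and 0.949 FPKM in A2, and Sobic.003G290500, at 0.933 FPKM in A1. Just outside it were Sobic.005G006100 at 1.09 FPKM in A1 and 888 FPKM in A3, Sobic.003G173700 at 1.10 FPKM in A2 and 1021 FPKM in A3, and Sobic.003G206200, given above. A total of 7 loci outside the set had at least 1000 FPKM in A3 and at least 100 times their early level. The highest of these, Sobic.003G413400, had 4.66, 2.23 and 9908 FPKM at A1, A2 and A3, and Sobic.007G219300 had 0.202, 3.35 and 4950.3 FPKM.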

How the data were processed

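RNA of whole anthers was sequenced in 9 libraries, 3 per stage. The authors trimmed reads, removed rRNA reads with Bowtie2 2.2.9, aligned with STAR to the Phytozome sorghum genome v3.0.1, and quantified with StringTie 1.3.3b and Cuffdiff. The deposited table holds FPKM that the authors pooled over the replicates, 1 number for each locus at each stage. Strand settings and the treatment of multiply mapped reads are not given in the sources used here.

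Values were used as deposited in python 3.11.15 (pandas 2.3.3, numpy 2.4.6, scipy 1.17.1, matplotlib 3.10.9). Log2 values were taken after adding 0.5 FPKM. Positions have 1 added to the deposited start, which met 736 RefSeq starts, against 163 without it. RefSeq matched 0 gene IDs, so neither descriptions nor sequences could be taken from it, and motif counts and most functional classes were not made. The members and gene lists were chosen with earlier results of these data known. Named were the 12 highest in A3, members with a described function, those at 0 in both early stages, those within 100 kb of another, and the 3 loci nearest each limit on each side. Some further examples were named after their values were seen. A limma fit was planned for replicate values and was not run on pooled ones. Alternatives were other limits, pseudocounts, scalings and distances. The counting was tested on simulated data. Columns of the authors' matches were used for function only.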

Additional observations from a re-analysis of the deposited data

Results flagged for a closer look

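Loci without a gene ID could not enter the set, and 3 of the 6967 met the same limits. MSTRG.30024, on chromosome 10 at 4439732–4440785, had 0.117, 0.109 and 332.893 FPKM at A1, A2 and A3 and lay 752 bases from Sobic.010G056900. MSTRG.5236, on chromosome 1 at 80255145–80255527, had 0.0738, 0 and 201.657 FPKM and lay within the run of late loci that includes expansin genes. MSTRG.14173, on chromosome 4 at 3433942–3434235, had 0.130, 0.0796 and 112.007 FPKM and lay 301 bases from Sobic.004G041800, which had 221 FPKM in A3. Each stood out as an A3 signal in a locus that the rule could not select. Such loci counted in the sums over all loci, and MSTRG.5236 was set beside its run above. Whether they are parts of the neighbouring genes was not tested.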

How the results depend on the processing

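The number of genes was 208 with an A3 minimum of 50 FPKM and 62 with 200 FPKM, and 97 and 130 with early limits of 0.5 and 2 FPKM. Scaling changed it as well, to 97 with equal stage sums and 111 with median-of-ratios scaling. The share of summed A3 FPKM was 9.64% over loci with a gene ID alone and 6.09% without the highest gene. For A3 over A2 the median log2 was 10.49 and 7.59 with pseudocounts of 0.1 and 1 FPKM, 8.29 with equal stage sums and 8.47 with median-of-ratios scaling. That of A3 over A1 was 10.20, 7.56, 8.21 and 8.39 in the same order. A smaller pseudocount gives a larger ratio by construction. With a 2-fold minimum and loci at 0 left out, 46 genes were lower in A2 than in A1, and 87 were under either scaling. Median length was 1305 bases at 200 FPKM or more in A3 and 1292 bases for loci with a span of their own, an alternative chosen after seeing the data. Genes with another within 50 kb numbered 29 and within 500 kb 52.

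No paired analysis was possible because the values are pooled over the 3 libraries of each stage. Leaving out replicates and a replicate block were not run for the same reason. With 1 pooled value per stage and unknown read numbers per locus, the values have no replicate error, and early levels under 1 FPKM are the least certain.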
